A study of Mus musculus with 6 samples.

Results

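The subunits of the mitochondrial respiratory chain that are encoded in the nucleus were followed as 80 genes in islets of mice with and without added Jag1, a ligand of the Notch receptors. The genes were chosen by symbol: Nduf genes of the a, b, c, s and v series, Sdha to Sdhd, Uqcr genes, Cyc1, Cycs, Cox4 to Cox8 genes whose number is followed by a, b or c, and genes starting with Atp5. Symbols that contain -ps, which mark pseudogenes, numbered 13 and were left out. Of the 89 symbols that remained, 80 had an estimated count above 10 in at least 3 libraries, out of 34945 genes in the table. They comprised 36 genes of complex I, 4 of complex II, 9 of complex III, 13 of complex IV, 17 of complex V and Cycs, which encodes cytochrome c. Ndufa4 and Ndufa4l2 were placed with complex IV, since the Ndufa4 protein is a complex IV subunit.

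Transcripts were sequenced from whole islets of 3 control and 3 Jag1 libraries. Controls had the genotype RIP-Cre+, Rosa26-rtTA+, tetO_Jag1-, and Jag1 libraries came from RIP-Cre+, Rosa26-rtTA+, tetO_Jag1+ mice. Doxycycline had been given to both groups for 8 weeks, so every library carried Cre, the transactivator and the drug, and the tetO_Jag1 allele was the labelled difference. RIP is the rat insulin promoter, which drives Cre in β cells, whereas RNA was taken from all cells of the islet; fewer cells of a type and less RNA per cell cannot be told apart in such samples. Neither age nor sex of the mice is stated in the labels. They do not tie libraries to individual mice; the tests therefore rest on the variation among these 6 libraries, which may in part be technical.

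The respiratory chain sits in the inner mitochondrial membrane. Complexes I and II pass electrons from NADH and succinate to ubiquinone, complex III passes them to cytochrome c, complex IV reduces oxygen, and complex V uses the resulting proton gradient to make ATP. Most subunits are nuclear-encoded and imported, while a small core of complexes I, III, IV and V is encoded by mitochondrial DNA. In β cells the ATP made from glucose closes the potassium channels that set off insulin release.

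Library totals ranged from 14283469 to 34348729 counts. Counts were scaled to CPM, counts relative to a library total that TMM factors adjust for composition. Jag1 itself stood at 4.28, 4.01 and 4.01 CPM in Control 1 to 3 and at 837.6, 524.9 and 906.9 CPM in Jag1 1 to 3, so each library followed its label. The insulin genes Ins1 and Ins2 took 11.4% to 18.8% of counts. A list of 22 acinar markers, genes of the digestive-enzyme cells that surround islets, took 0.368% to 8.99% in controls and 0.722% to 9.11% in Jag1 libraries, with Control 1 and Jag1 3 highest in their groups.

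The 80 genes together held 0.420% of the counts in Control 1 (95% exact binomial interval 0.417 to 0.423), 0.506% in Control 2 (0.502 to 0.509) and 0.512% in Control 3 (0.509 to 0.516). Their share was 0.573% in Jag1 1 (0.569 to 0.576), 0.541% in Jag1 2 (0.539 to 0.544) and 0.476% in Jag1 3 (0.472 to 0.479). Jag1 1 and Jag1 2 lay above all controls and Jag1 3 lay between Control 1 and Control 2, so the groups overlapped. The intervals cover counting error only.

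Transcript levels of different subunits were compared per length, as the mean CPM over the 6 libraries divided by the median length of the gene's coding transcripts in kb. The 79 genes with a coding transcript had a median length of 659 bp. The median level per length was 48.0 CPM per kb in complex I, 66.9 in complex II, 86.4 in complex III, 89.5 in complex IV and 101 in complex V. With the longest transcript in place of the median length, these values were 38.8, 53.4, 53.7, 89.5 and 75.1 CPM per kb, so the order of complexes IV and V depended on the length used. In complex I, levels ran from 7.01 ± 1.30 CPM per kb (SD over 6 libraries, here and below in this paragraph) for Ndufb4, a membrane-arm subunit, to 152 ± 10 for Ndufa6, an accessory subunit of the matrix arm. In complex IV they ran from 2.74 ± 0.64 for Ndufa4l2 to 252 ± 23 for Cox7a2l, whose protein joins complexes III and IV into supercomplexes. In complex V, Atp5g2, one of the genes for the membrane ring subunit c, had 14.5 ± 4.1 CPM per kb and Atp5l, subunit g, had 211 ± 20. The catalytic β subunit gene Atp5b had 198 ± 12 CPM per kb. Cycs had 11.95 ± 1.75 CPM per kb. Ndufs1, the large iron-sulfur subunit of complex I, shows how far length bears on this scale: it had 123.7 CPM per kb with its median transcript length of 651 bp and 30.3 with its longest transcript of 2661 bp.

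**Figure D1:**
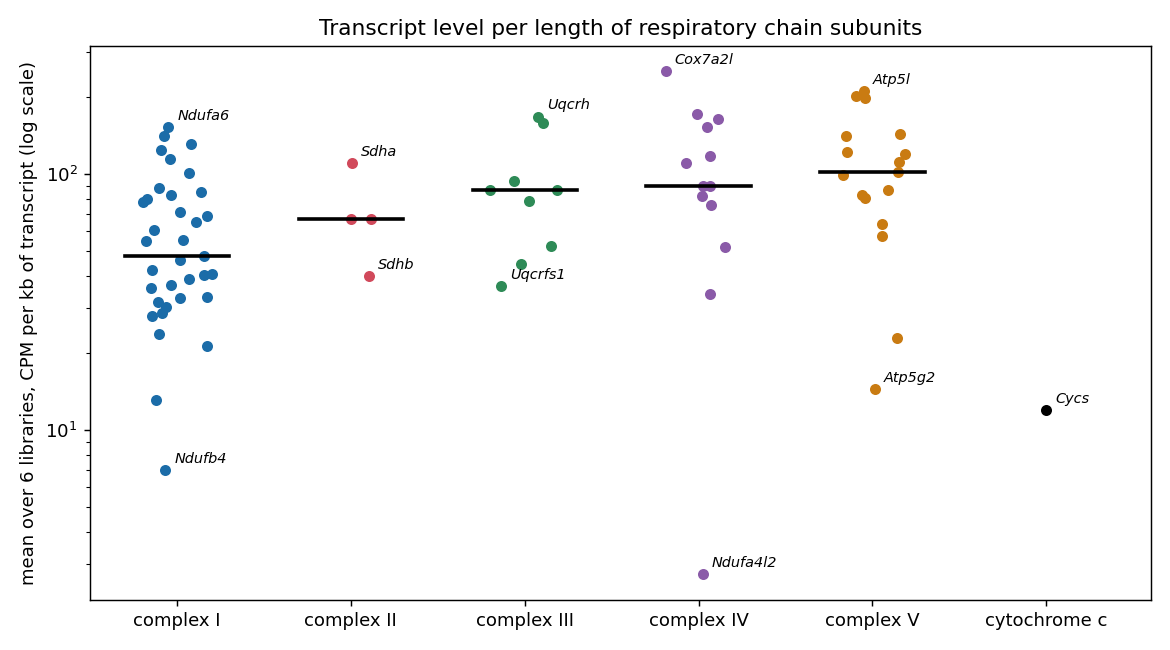
Mean level per transcript length over 6 libraries (CPM per kb, log axis) of each respiratory chain gene with a coding transcript, by complex. Each point is a gene, black lines are medians, and the genes with the highest and lowest level in each complex are named; complex IV holds both ends of the whole range, from 2.74 for Ndufa4l2 to 252 for Cox7a2l.

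Several subunits exist as tissue isoforms, and the islet libraries held mostly the widely expressed form. Of the COX6A pair, Cox6a1 is the general isoform and Cox6a2 the form known from heart and skeletal muscle. Cox6a2 nevertheless stood at 48.0, 28.7 and 32.8 CPM in Control 1 to 3 and at 28.0, 50.6 and 24.7 CPM in Jag1 1 to 3. That was 32.8% ± 6.6 of the pair's level per length in controls and 30.2% ± 7.8 in Jag1 libraries (SD, n = 3 each). Control 1 and Jag1 2 were both high for Cox6a2, and the groups overlapped. The lung-type Cox4i2, which the symbol rule does not take in, had 0.768 to 1.76 CPM and at most 1.84% of the Cox4i pair. Ndufa4l2, a paralogue of Ndufa4, had at most 2.18% of its pair.

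Genes below the count rule numbered 9. Cox7a1, the muscle form of COX7A, had 27 counts over the 6 libraries, and Cox8b, a muscle form of COX8, had 1. The testis forms Cox6b2 and Cox7b2 had 11 and 5 counts. Ndufa11b, Ndufb11b, Ndufs6b, Cox6c2 and Cox8c had 0 counts in each library, which allows up to 3 counts in a library at this depth, for counting error only. Of these, Ndufa11b, Ndufs6b and Cox6c2 are annotated as processed pseudogenes in GENCODE vM21, and Ndufb11b has no entry there.

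Nuclear respiratory genes are known to share promoter elements, among them the palindrome bound by nuclear respiratory factor 1 (NRF1) and the core motif of ETS factors such as GABP. The 250 bases before the start were searched on both strands in the 65 genes that matched a RefSeq promoter entry (GRCm38.p6). The NRF1-type motif GCGCA-N-GCGC, where N is any base, was found in 13 of 65 (20%), against 8.79% of 10891 tested genes and 4.23% of all 27025 genes with an entry. One window is shown for each complex, that of the gene of highest mean CPM among those with a match, to show the motif (in capitals) on the gene's strand; the complex III window holds the ETS motif CCGGAAG, on the opposite strand, since no complex III entry held the NRF1-type motif.
Ndufs5, complex I, chr4:123718250-123718309, minus strand: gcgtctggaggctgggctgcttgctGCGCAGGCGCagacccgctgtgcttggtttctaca
Sdha, complex II, chr13:74350304-74350363, minus strand: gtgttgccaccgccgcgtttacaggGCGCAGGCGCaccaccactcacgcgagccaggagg
Uqcrh, complex III, chr4:116075071-116075105, minus strand: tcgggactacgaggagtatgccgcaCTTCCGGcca
Cox6a1, complex IV, chr5:115349086-115349145, minus strand: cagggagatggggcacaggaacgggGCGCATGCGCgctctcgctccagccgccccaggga
Atp5c1, complex V, chr2:10080433-10080474, minus strand: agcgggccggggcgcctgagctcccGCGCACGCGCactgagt
The match shown lies 88 bases before the start in Ndufs5 and Sdha, 152 in Cox6a1, 7 in Atp5c1 and 3 in Uqcrh. The 250 bases searched held 3 matches in Sdha and 2 in Cox6a1, of which the one farthest from the start is shown. In Cox6a1 the match shown reads the same on both strands. Such a match was in 4 of the 65 genes (6.15%, against 1.80% of tested genes), which are among the 13.

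The ETS motif was in 12 of 65 (18.5%, against 14.7% of tested genes), and 3 genes held both motifs: Sdhd, Cox6a1 and Atp5h. The cyclic AMP element TGACGTCA was in 5 of 65 (7.69%, against 2.99%), those of Ndufb2, Ndufa10, Ndufa11, Uqcrfs1 and Cycs. The GC box GGGCGG was in 35.4%, against 62.5% of tested genes, whereas CCAAT (43.1% against 40.3%) and TATAAA (9.23% against 8.38%) were close to all tested genes. Genes with and without the NRF1-type match had median log2 fold changes of 0.16 and 0.14 between Jag1 and control islets, and those with and without the ETS match had 0.16 and 0.14. These are matches to letters in a window, not measured binding.

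Between Jag1 and control islets, no gene of the 80 passed the test. The edgeR quasi-likelihood test with Benjamini-Hochberg adjustment over 14073 genes called 0 of 80, where 0.0213% of all genes tested were called. DESeq2 also called 0 of 80 (0.256% of all genes), as did limma-voom (0.0426%), and the authors' deposited table held 0 of 80 under an adjusted p of 0.05 (0.0213% of its genes). The smallest adjusted p among the 80 was 0.926 by edgeR. At an unadjusted p under 0.05 edgeR counted 4 of 80, which is 5.0%, beside 4.97% of all genes: Ndufa11, Ndufa2, Ndufa5 and, in the other direction, Atp5g2. This number varied with the setting. It was 12 with the acinar share as a covariate (5.94% of all genes) and 7 with no filter on low counts (4.50%). Leaving out Control 3 gave 17 (5.69%), leaving out Jag1 3 gave 7 (5.69%), and leaving out Control 1 gave 1 (4.36%). With both Control 1 and Jag1 3 left out it was 2 (4.85%).

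The direction of the small differences was less even than this count. The log2 fold change (Jag1 minus control) was above 0 for 69 of 80 genes, against 49.0% of all genes tested, with a median of 0.15 against -0.004 over all genes tested. In the authors' deposited table it was also above 0 for 69 of 80, with a median of 0.14. Every Jag1 library stood above every control library for 13 of 80 genes (16.3%), against 5.30% of all genes. The reverse held for 0 of 80, against 5.21% of all genes. With Control 1, Control 2 or Control 3 left out the first count was 15 (9.66% of all genes), 21 (8.89%) or 29 (11.9%), and with Jag1 1, Jag1 2 or Jag1 3 left out it was 18 (9.71%), 19 (9.79%) or 25 (11.2%). Without Control 1 and Jag1 3 together it was 27 (16.8%). The 80 genes share libraries and scaling, so their signs are not independent of each other.

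**Figure D2:**
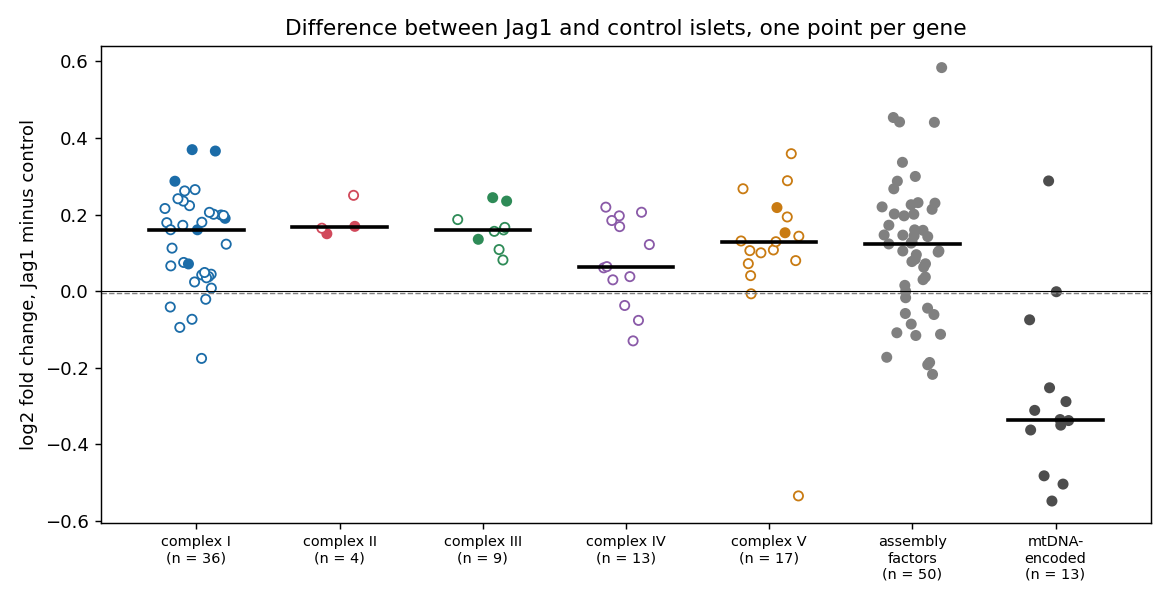
Log2 fold change between Jag1 and control islets (vertical axis) for each gene, by complex, with the assembly factors and the subunits encoded by mitochondrial DNA beside them. Black lines are medians, the dashed line is the median of all genes tested, and filled points of the complexes mark genes for which every Jag1 library stood above every control library; medians of complexes I to V lie between 0.06 and 0.17, and that of the mtDNA-encoded genes at -0.33.

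The 6 libraries did not split cleanly into the groups. Each gene's log2 CPM was taken as its deviation from that gene's mean over the 6 libraries, and the median deviation over the 80 genes was -0.14, -0.02 and -0.03 in Control 1 to 3, against 0.12, 0.07 and -0.02 in Jag1 1 to 3. Jag1 3 lay at the level of Control 2 and Control 3, Control 1 was lowest, and Jag1 1 highest. The lowest of the 6 libraries was Control 1 for 48 of 80 genes, against 17.1% of all genes tested. The highest was Jag1 1 for 36 (18.0% of all genes), Jag1 2 for 25 (18.7%) and Jag1 3 for 6 (14.7%). The acinar share was 8.99% in Control 1 and 9.11% in Jag1 3. The log2 of that share ran from -8.09 to -3.48 in controls and from -7.11 to -3.46 in Jag1 libraries. A covariate so alike in both groups can move a group difference only a little. With it in the fit, the median log2 fold change over the 80 genes was 0.15, as without it, although 12 genes in place of 4 had an unadjusted p under 0.05. Without Control 1 it was 0.10, without Jag1 1 it was 0.10, and without Control 1 and Jag1 3 together it was 0.14.

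**Figure D3:**
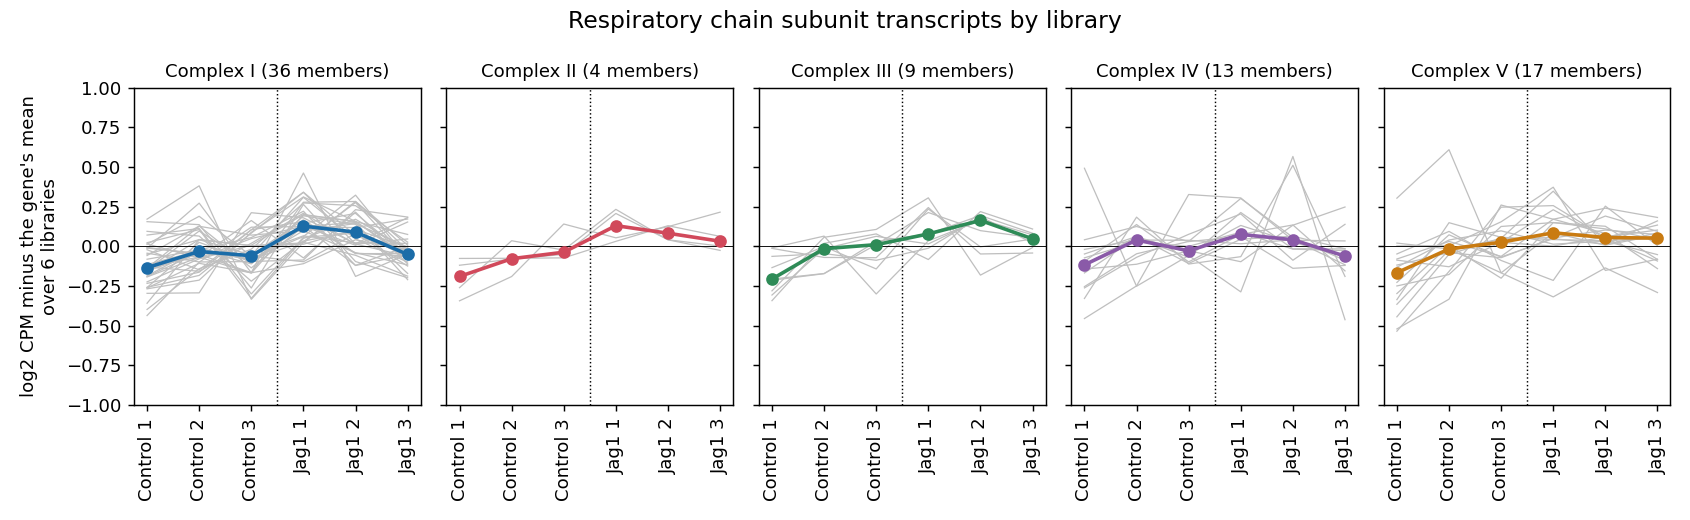
Deviation of log2 CPM from each gene's mean over the 6 libraries (vertical axis) in each library (horizontal axis), 1 panel per complex. Grey lines join the values of a gene, coloured points are the median of the complex, and the dotted line separates controls from Jag1 libraries; Control 1 has the lowest median in all 5 panels, and the Jag1 3 median falls to -0.05 in complex I and -0.06 in complex IV.

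Complex I had a median log2 fold change of 0.16, with 31 of 36 genes above 0. Every Jag1 library was higher for 6 of its genes (16.7%, against 5.30% of all genes). Its library medians were -0.13, -0.03 and -0.06 in Control 1 to 3, against 0.13, 0.09 and -0.05 in Jag1 1 to 3, so Jag1 3 did not stand apart from Control 2 and Control 3. Without Jag1 1 the median was 0.08. Ndufa11, an accessory membrane-arm subunit (GRCm38 chr17:56717767-56722141), had the smallest p of the 80. It stood at 21.6, 24.0 and 23.1 CPM in controls and at 31.4, 31.5 and 25.5 CPM in Jag1 libraries, with a log2 fold change of 0.37 (SE 0.12, edgeR adjusted p = 0.926). The groups did not overlap, and Jag1 3 lay nearest to the controls. The exact two-sided permutation test gave p = 0.1, the smallest that 3 against 3 libraries allow, as it did for each gene whose groups did not overlap. Ndufa2, a matrix-arm accessory subunit, stood at 25.9, 31.0 and 33.7 CPM against 41.3, 40.8 and 34.8 CPM with 0.37 on the log2 scale (SE 0.13, edgeR adjusted p = 0.933). Its groups were separated by the gap between Control 3 and Jag1 3. Ndufa5, another accessory subunit of that arm, stood at 21.1, 23.0 and 21.5 CPM against 27.7, 26.9 and 25.5 CPM, with a log2 fold change of 0.29 (SE 0.11).

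The catalytic core of complex I showed smaller differences. Ndufv1, which binds the flavin that takes electrons from NADH, stood at 40.6, 44.4 and 41.8 CPM in controls and at 50.0, 52.2 and 43.2 CPM in Jag1 libraries, overlapping through Control 2 and Jag1 3 (log2 fold change 0.20, SE 0.11). Ndufs1 stood at 79.1, 72.5 and 86.4 CPM against 89.5, 77.8 and 77.8 CPM (0.04, SE 0.11). The groups overlapped for Ndufs1, and its sign turned without Control 2 or without Jag1 1. Ndufs6, a zinc-binding subunit, had groups that did not overlap at 30.3 to 31.1 against 31.8 to 32.8 CPM, yet its log2 fold change was 0.07 (SE 0.10), a separation far narrower than that of Ndufa11. Ndufb3 and Ndufa9 completed the 6, with log2 fold changes of 0.19 and 0.16. The lowest value in the complex was that of Ndufa12, -0.18 (SE 0.16). Ndufab1, the mitochondrial acyl carrier protein that also sits in complex I and is outside the symbol rule, had -0.02 (SE 0.11).

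Complex II, the citric acid cycle enzyme succinate dehydrogenase, had all 4 genes above 0, between 0.15 and 0.25. Sdha, the flavoprotein that oxidises succinate (chr13:74322254-74350280), varied little within groups: 188.8, 188.9 and 189.3 CPM in controls and 203.4, 217.8 and 207.9 CPM in Jag1 libraries. Every Jag1 library was higher, and the log2 fold change was 0.15 (SE 0.10, edgeR adjusted p = 0.955). The SE rests on a dispersion moderated over all genes, not on the spread of these controls alone. Sdhb, the iron-sulfur subunit, stood at 41.8, 43.0 and 43.9 CPM against 52.4, 46.8 and 45.5 CPM (0.17, SE 0.11), also without overlap. The membrane anchors Sdhc and Sdhd overlapped: Sdhc stood at 42.5, 47.2 and 59.4 CPM against 56.0, 58.8 and 62.6 CPM (0.25, SE 0.13), because Control 3 reached the Jag1 range. Sdhd had 0.16 (SE 0.12).

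Complex III had all 9 genes above 0, from 0.08 to 0.24, with a median of 0.16. Unlike complexes I and IV, its Jag1 3 median was above 0 (0.05), beside 0.08 in Jag1 1 and 0.16 in Jag1 2, and its Control 1 median was -0.21. Uqcr10, a small membrane subunit, stood at 29.3, 30.0 and 34.1 CPM against 39.2, 36.2 and 35.1 CPM with 0.24 on the log2 scale (SE 0.11, edgeR adjusted p = 0.955). Uqcrfs1, the Rieske iron-sulfur protein that takes electrons from ubiquinol (chr13:30540308-30545362), stood at 42.7, 43.9 and 50.6 CPM against 52.3, 56.7 and 52.4 CPM (SE of its log2 fold change 0.11). In both genes Control 3 was the highest control and still lay below every Jag1 library. Uqcrc1, a core protein facing the matrix, was the other gene without overlap, at 26.1 to 26.9 against 27.5 to 31.6 CPM (0.14, SE 0.11). Cyc1, which carries the haem that hands electrons to cytochrome c, stood at 25.03, 32.2 and 33.5 CPM against 30.0, 37.0 and 34.3 CPM (0.16, SE 0.14), with overlap. Uqcrh, the hinge protein, had 0.19 (SE 0.11).

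Cytochrome c, the carrier between complexes III and IV, followed a different pattern over the libraries. Cycs stood at 31.8, 41.9 and 41.9 CPM in controls and at 43.0, 31.8 and 33.4 CPM in Jag1 libraries, with a log2 fold change of -0.10 (SE 0.15). Control 1, Jag1 2 and Jag1 3 were low and the other libraries high. Gm10053 shares 99.9% identity over 946 bp with Cycs, so few reads from that stretch can be told apart. It held 3174 counts over the libraries, against 4454 for Cycs, and stood at 17.7, 21.4 and 38.2 CPM against 36.6, 21.6 and 26.6 CPM. Summed with Gm10053 and Gm10108, another copy, Cycs had a log2 fold change of 0.01 (SE 0.19).

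Complex IV had a median log2 fold change of 0.06, with 10 of 13 genes above 0 and 0 genes without overlap in either direction. Over all genes tested, every Jag1 library was higher for 5.30% and lower for 5.21%, so for 13 genes a count of 0 is near those shares. Whether it differs from the other complexes was not tested. Cox5a, a subunit on the matrix side, stood at 19.7, 20.1 and 21.4 CPM against 20.4, 23.9 and 25.9 CPM (0.20, SE 0.13), overlapping through Jag1 1. Cox5b, its zinc-binding neighbour, stood at 55.2, 57.5 and 57.4 CPM against 56.5, 57.5 and 51.6 CPM (-0.04, SE 0.10). Cox7a2 had 0.18 (SE 0.13), Cox7b 0.17 (SE 0.12), Cox8a 0.06 (SE 0.10), Cox6a1 0.06 (SE 0.10) and Cox6b1 0.03 (SE 0.10). Ndufa4 varied within the controls from 56.7 CPM in Control 1 to 97.6 CPM in Control 3, beside 79.7 to 96.1 CPM in Jag1 libraries (0.22, SE 0.19). Cox7a2l, the highest of the complex per length, stood at 259.7, 305.1 and 259.2 CPM against 292.3, 304.5 and 249.2 CPM (0.04, SE 0.12). Cox4i1, the regulatory subunit outside the symbol rule, stood at 87.3, 89.7 and 85.3 CPM against 100.6, 108.5 and 101.2 CPM, so in complex IV the gene with separated groups was one that the rule leaves out (edgeR adjusted p = 0.955).

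Complex V had a median of 0.13, with 15 of 17 genes above 0. The catalytic head is made of α and β subunits. Atp5a1, subunit α, stood at 191.3, 202.0 and 197.6 CPM in controls and at 215.3, 222.9 and 218.5 CPM in Jag1 libraries, without overlap (SE of its log2 fold change 0.10, edgeR adjusted p = 0.955). Atp5b, subunit β, stood at 337.6, 372.9 and 385.5 CPM against 379.3, 395.0 and 406.8 CPM (0.11, SE 0.11), where Control 3 lay above Jag1 1. Of the central stalk, Atp5c1 (γ) had 0.08 and Atp5d (δ) 0.04, both with overlap. Atp5e, the small ε subunit, stood at 35.0, 39.8 and 60.1 CPM against 56.5, 59.3 and 56.9 CPM, with a log2 fold change of 0.36 (SE 0.18). Control 3 was above all Jag1 libraries for Atp5e, so its size rests on Control 1 and Control 2: without Control 3 it was 0.62.

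Subunit c of the membrane ring is encoded by 3 genes that give the same mature protein. By level per length, Atp5g3 made up 72.2% ± 3.2 of the set in controls and 77.2% ± 0.5 in Jag1 libraries, Atp5g1 15.6% ± 0.7 and 15.2% ± 0.7, and Atp5g2 12.1% ± 3.3 and 7.61% ± 0.22 (SD, n = 3 each). These shares depend on the annotated median length, which is 2675.5 bp for Atp5g1, 718.5 bp for Atp5g3 and 683 bp for Atp5g2. Before division by length, the means over 6 libraries were 61.6, 80.4 and 9.92 CPM in that order. Atp5g3 stood at 62.0, 78.5 and 82.5 CPM against 83.0, 91.1 and 85.2 CPM, without overlap (0.22, SE 0.12). Atp5g1 had 0.07 (SE 0.13).

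Atp5g2 (chr15:102662864-102672352) was the member farthest from 0. It stood at 11.9, 14.7 and 8.57 CPM in controls and at 7.71, 8.76 and 7.85 CPM in Jag1 libraries, a log2 fold change of -0.53 (SE 0.20, edgeR adjusted p = 0.947). Control 3 lay within the Jag1 range. Its count depends on how reads are divided: Gm10175, annotated as a processed transcript, is identical to Atp5g2 over 645 bp and held 9241 counts over the libraries, against 1197 for Atp5g2. Gm10175 stood at 64.8, 68.3 and 69.2 CPM against 73.5, 89.0 and 76.1 CPM (log2 fold change 0.24, SE 0.11). Summed, the pair stood at 76.7, 83.1 and 77.8 CPM against 81.2, 97.7 and 83.9 CPM, a log2 fold change of 0.15 (SE 0.11), so the sign of Atp5g2 turned with this choice. The summed pair made up 48.1% ± 3.4 of the subunit c set per length in controls and 47.1% ± 1.5 in Jag1 libraries, and Atp5g3 then made up 42.6% ± 2.8 and 44.2% ± 0.9 (SD, n = 3 each), with overlap between groups.

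**Figure D4:**
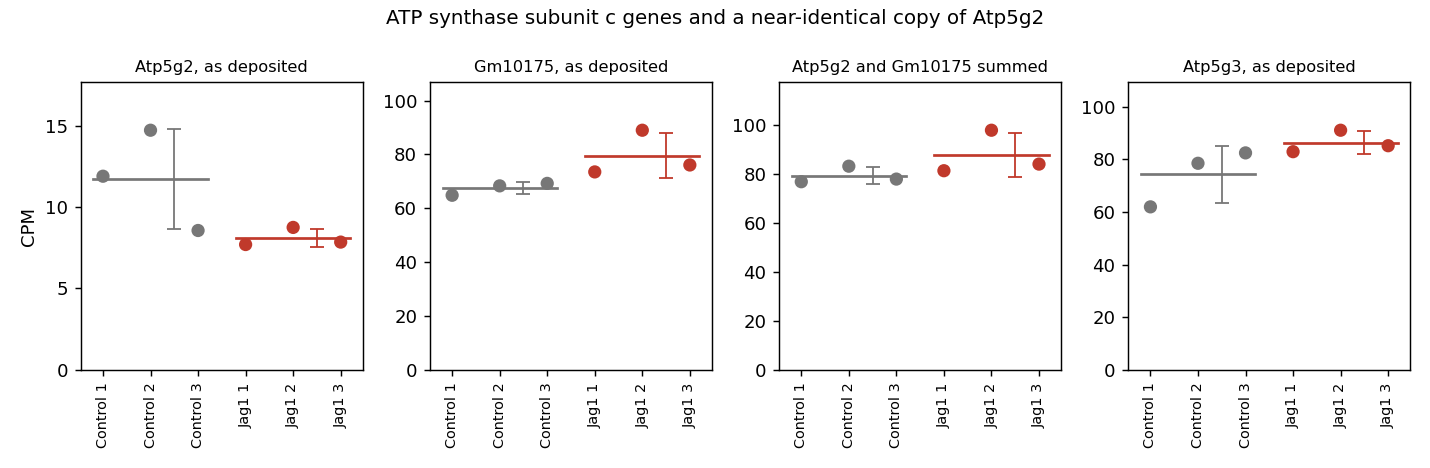
CPM (vertical axis, from 0) in each library for Atp5g2 as deposited, for Gm10175, for their sum and for Atp5g3, with controls in grey and Jag1 libraries in red. Horizontal lines are group means and error bars are SD (n = 3); Atp5g2 alone is lower in the Jag1 mean, 8.11 against 11.7 CPM, and the sum is higher, 87.6 against 79.2 CPM.

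Shared sequence touched other members as well. A copy on the same strand with at least 98% identity over at least 150 bp was found among annotated transcripts for 14 of 80 genes, and for 6 of them the copy held over 10% of the member's counts: Atp5g2, Ndufb4, Ndufb4c, Cycs, Cox7c and Atp5l. Ndufb4c, taken in by its symbol, is annotated as a processed pseudogene and is identical to Ndufb4 over 390 bp; it held 3188 counts against 820 for Ndufb4. Summed, this pair had a log2 fold change of 0.02 (SE 0.15), against 0.17 (SE 0.21) for Ndufb4 alone. The low level per length of Ndufb4, Atp5g2 and Cycs given above is that of the deposited counts, without those of their copies.

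Other genes of the pathway were read from lists. Of 50 assembly factors, which build the complexes without remaining in them, 38 had a log2 fold change above 0 (49.0% of all genes tested) and the median was 0.12. By complex, 3 of 4 factors for complex II were above 0, 5 of 6 for complex III, 13 of 21 for complex IV and 2 of 4 for complex V. All 15 tested complex I factors were above 0, with a median of 0.17. Among them Ndufaf3 stood at 12.8, 9.79 and 9.79 CPM against 16.6, 15.6 and 11.8 CPM, where Control 1 lay above Jag1 3. Tmem70, the highest of the 4 complex V factors by log2 fold change, stood at 18.9, 19.9 and 21.8 CPM against 23.5, 26.8 and 26.1 CPM. Its groups did not overlap (0.34, SE 0.12, edgeR adjusted p = 0.937). The complex V factors Atpaf1 and Atpaf2 lay below 0, at -0.11 and -0.09. No assembly factor passed by edgeR. Of 12 regulators of mitochondrial biogenesis, 7 were above 0 with a median of 0.02. The regulator Ppargc1a stood at 2.85, 2.53 and 3.13 CPM against 1.54, 3.16 and 3.84 CPM, and Nrf1 at 20.9, 23.4 and 18.2 CPM against 18.2, 22.01 and 21.6 CPM, with overlap in both.

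Most of the 13 subunits encoded by mitochondrial DNA lay on the other side. The share of counts that all 13 took was 10.8% in Control 1, 9.27% in Control 2 and 7.76% in Control 3. It was 9.19%, 8.57% and 6.51% in Jag1 1 to 3. It was highest in Control 1, where the nuclear-encoded share was lowest, but the other libraries did not all follow this. Jag1 3 had the lowest mtDNA-encoded share, while its nuclear-encoded share, 0.476%, was below all libraries but Control 1. Of the 13 subunits, 1 had a log2 fold change above 0 and 12 had one below 0, where 49.0% of all genes tested were above 0. The median was -0.33, and none passed by edgeR. At an unadjusted p under 0.05 edgeR counted 2 of 13, beside 4.97% of all genes. Single values ran from -0.55 for mt-Nd5 to 0.29 for mt-Nd6, with mt-Co1 at -0.07 and mt-Co3 at -0.001. Leaving out Control 1 gave a median of -0.14, and leaving out Jag1 3 as well gave -0.03. For the nuclear-encoded genes the median was 0.14 in the latter comparison. Cytosolic ribosomal protein genes, 79 short and abundant transcripts, had a median of 0.13, with 60 above 0. Every Jag1 library was higher for 17 of these 79 (21.5%) and for 9 of the 50 assembly factors (18%). The share was 16.3% of the 80 respiratory chain genes and 5.30% of all genes, so such separation was not particular to the chain.

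Transcript length moved with the direction of change in these libraries, and the split by length was made after the values had been seen. Among other tested genes the median log2 fold change was 0.04 for coding transcripts of up to 600 bp (439 genes, 59.7% above 0) and -0.06 for those over 4000 bp (2573 genes, 34.8% above 0). Respiratory chain genes of up to 600 bp numbered 29, with a median of 0.17 and 27 above 0. Those of over 600 and up to 1000 bp numbered 31 and had a median of 0.14, beside 0.04 in 1789 other genes of that length. Those of over 1000 and up to 2000 bp numbered 15 and had 0.15, beside 0.02 in 3548 other genes. Those of over 2000 and up to 4000 bp numbered 4 and had a median of 0.04 with 3 above 0, beside -0.01 in 5031 other genes. The part that length has in the result was not tested further.

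Markers of other cell types were read in the same fit, and edgeR called 0 of them in any list. At an unadjusted p under 0.05, edgeR counted 4 of 7 alpha cell markers, 4 of 10 duct markers and 7 of 10 immediate early genes. The share over all genes tested was 4.97%. It also counted 2 of 10 stellate and pericyte, 1 of 5 delta and gamma, 1 of 9 endothelial and 1 of 9 macrophage markers. For beta cell and acinar markers the counts were 0 of 10 and 0 of 22. Of the alpha cell markers 6 were below 0, with sums of 35355 to 57229 CPM in controls against 15012 to 33082 CPM in Jag1 libraries. Of the duct markers 9 were above 0, with sums of 502 to 577 CPM against 646 to 701 CPM. Of the immediate early genes, which respond to handling among other stimuli, 9 were above 0, with sums of 128 to 152 CPM against 155 to 273 CPM.

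All 10 stellate and pericyte markers had a log2 fold change above 0, but they did not follow the groups as a list. Their median deviation was -0.47, 0.30 and -0.27 in the controls, and -0.05, -0.76 and 1.499 in Jag1 1, Jag1 2 and Jag1 3, so Jag1 3 was highest and Jag1 2 lowest. Their summed level, 183 to 227 CPM against 267 to 398 CPM, was mostly that of the pericyte gene Rgs5, at 141 to 180 against 211 to 255 CPM. Beta cell markers were above 0 for 5 of 10, with sums of 143665 to 184418 CPM against 148361 to 210265 CPM, and acinar markers for 9 of 22. Endothelial markers were above 0 for 9 of 9, macrophage markers for 7 of 9 and delta and gamma cell markers for 2 of 5, and their sums overlapped between groups. No marker in these lists was at 0 in all libraries. The part of these cell types in the respiratory chain values was not tested.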

How the data were processed

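Values came from a deposited table of estimated counts per gene symbol, which are whole numbers and were used as deposited; kallisto, limma and GRCm38 (mm10) are named per the submitters' processing notes, and the annotation and the way transcripts were summed to genes are not given in the sources used here. RNA was prepared with a stranded mRNA kit, per the labels' protocols. The authors' deposited table gives a log2 fold change, a p-value and adjusted p-value, and the moderated t and log odds as scores; the scores were not used. A row that names no gene held 0.00896% to 0.0155% of counts and was left out.

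edgeR 4.0.16 (R 4.3.3) was run on all 6 libraries with TMM scaling, filterByExpr at a minimum count of 10 and a robust quasi-likelihood fit. p-values were adjusted over all 14073 genes by Benjamini-Hochberg, with a threshold of 0.05, and all 80 members were among the genes tested. SDs and log2 CPM (prior count 2) are over libraries. DESeq2 1.42.0, limma 3.58.1 (voom), other scalings, filters, a replicate block, the acinar share as a covariate and left-out libraries were alternatives. Sums with near-identical copies, found with BLAST 2.17.0 in GENCODE vM21 transcripts, and separation of groups in left-out sets were added after seeing the data. Gene positions and lengths are from GENCODE vM21 (GRCm38), and 15 members had no RefSeq promoter entry. The fit was also run on simulated data with changes larger than those of the 80 genes, so that run does not bear on differences of this size.

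Named genes are the 2 with the smallest p and those with the highest and lowest level per length in each complex, fixed core subunits and isoform sets, and any called gene; others named were singled out after their values were seen; 1 core subunit is not reported here. The members and all lists were chosen with earlier results of these data known.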

Additional observations from a re-analysis of the deposited data

How the results depend on the processing

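Of the 80 genes, 0 were called under each of the 19 alternatives. The number with a log2 fold change above 0 was 62 to 74 when 1 library was left out and 69 to 71 otherwise, and the median over the 80 was 0.10 to 0.16 and 0.14 to 0.18. The complex I median ranged from 0.079 to 0.20 with 1 library left out, the lowest without Jag1 1. Genes with every Jag1 library higher numbered 15 to 29 with 1 library left out (8.89% to 11.9% of all genes) and 27 without Control 1 and Jag1 3 together (16.8% of all genes); fewer libraries separate more often by construction. Over all genes the number called was 3, and it was 36 by DESeq2, 11 with total count scaling, 9 with no filter on low counts, 7 without Control 1 and Jag1 3 together, 6 by limma-voom, 5 with the acinar share as a covariate and 2 to 6 with 1 library left out; the cause was not tested. Same-numbered libraries deviated together with correlations of -0.19, 0.11 and -0.29, and not every library correlated best with its own number. With 3 libraries in a group, such correlations cannot show whether same-numbered libraries were paired. A replicate block called 0 of the 80 and 3 genes in all, and the median was 0.15.

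Named genes whose sign turned with 1 library left out ranged over these settings from -0.056 to 0.17 (Atp5g1), -0.027 to 0.11 (Ndufs1), -0.031 to 0.086 (Ndufa6), -0.048 to 0.31 (Ndufb4), -0.018 to 0.12 (Cox7a2l), -0.056 to 0.36 (Ndufa4l2), -0.065 to 0.010 (Cox5b), -0.0073 to 0.052 (Cox6b1) and -0.47 to 0.18 (Cox6a2). Without Control 1 and Jag1 3 together, Atp5g1 had -0.058 and Cox6a2 0.37. Summed with near-identical copies, Atp5g2 had 0.15 and Cycs 0.0094. The sign thus turned in 17 of 665 values, in 11 of 35 genes, and the cause was not tested beyond the sums. With 3 libraries in a group, no exact permutation p can go below 0.1.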

Other observations

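Overlaps on the opposite strand could hold reads of another gene if counting ignored strand, which is not stated. Such an overlap of transcripts was found for 11 of the 80 genes. Atp5j, a peripheral stalk subunit of complex V, overlaps Gabpa, a subunit of the ETS factor GABP, over 175 bp. Ndufb5 overlaps Mrpl47, a mitochondrial ribosomal protein gene, over 530 bp, and Cox6c overlaps Vps13b over 251 bp.

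Within groups the 80 genes varied less than genes at large: the median SD of log2 CPM within groups was 0.14, against 0.19 over all genes tested. This was not compared at matched abundance.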
